A study of Mus musculus with 3 samples.

Results

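The DNA replication genes described here are 49 mouse genes that were chosen by name from a gene table: the subunits of the MCM2-7 helicase, the origin recognition complex (ORC), GINS, the replicative polymerases, the clamp loader RFC and the single-strand binding protein RPA, together with licensing factors, the sliding clamp and its partners, enzymes of nucleotide supply and Uhrf1. All 49 were found among the 55573 genes listed. RNA was measured by UMI-RNAseq in NIH3T3 cells, an established line of mouse embryonic fibroblasts, in a study that built amplified FISH probes and used the sequencing to know how strongly transcripts are expressed. The cells were untransfected and received no treatment beyond growth in medium with serum, they were frozen in TRIzol after trypsin, and neither genotype nor passage is given. They form 1 group of 3 libraries, called library 1, library 2 and library 3 here, so no conditions could be compared. Whether the libraries came from separate cultures is not stated, and their spread may be technical.

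Eukaryotic DNA replication starts where ORC, with Cdc6 and Cdt1, loads MCM2-7 rings onto DNA in G1 phase. In S phase the kinase Cdc7, with its partner Dbf4, and cyclin-dependent kinases lead to the joining of Cdc45 and GINS to the ring, which then unwinds DNA for polymerases alpha, delta and epsilon. Many of these genes are targets of E2F transcription factors and are transcribed mostly around the G1/S transition in dividing cells. The cells were sequenced in bulk and not sorted by cell cycle phase, so more cells with a transcript and more transcript per cell cannot be told apart.

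Levels are given in FPKM, the fragments counted for a gene per kilobase of its length and per 1000000 counted fragments. The libraries held 14423209, 13959723 and 14307241 fragments after UMIs (random tags that mark each molecule before PCR) were used to remove PCR copies. All 10 genes of a fibroblast marker list had a mean of at least 1 FPKM, with a summed level of 10126 to 10240 FPKM per library. The labels mention retina in their extraction text, but 0 of 10 retina markers reached 1 FPKM, with a summed level of 0.943 to 1.61 FPKM. The rod factor Nrl was listed at 0 in all libraries. Of 8 lymphoid markers, 0 reached 1 FPKM and 4 were listed at 0.

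NIH3T3 cells expressed almost the whole replication set. Of the 49 genes, 48 had a mean of at least 1 FPKM, and 44 had a mean of at least 10 FPKM, which is 89.8% of them, beside 63.6% of the 12905 genes in the table that reached 1 FPKM. The median of the 49 means was 32.6 FPKM, beside 17.5 FPKM over those 12905 genes. Over the 10813 protein-coding genes among them it was 21.9 FPKM. These medians depend on the gene length used, as described below. The genes summed to 2294, 2269 and 2256 FPKM in libraries 1, 2 and 3, and to 49451, 47431 and 48330 fragments, which was 0.343%, 0.340% and 0.338% of all fragments. The levels ran from Pcna, at 166 ± 2.27 FPKM (SD, n = 3), down to Cdc7, at 7.85 ± 0.334 FPKM, with Fen1 far below all others at 0.302 ± 0.0681 FPKM. The 7 genes with a mean of at least 100 FPKM were Pcna, Dbf4, Mcm4, Mcm2, Rrm1, Mcm3 and Mcm7. Besides Fen1, the genes under 10 FPKM were Cdc6, Gins3, Gins2 and Cdc7.

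**Figure D1:**
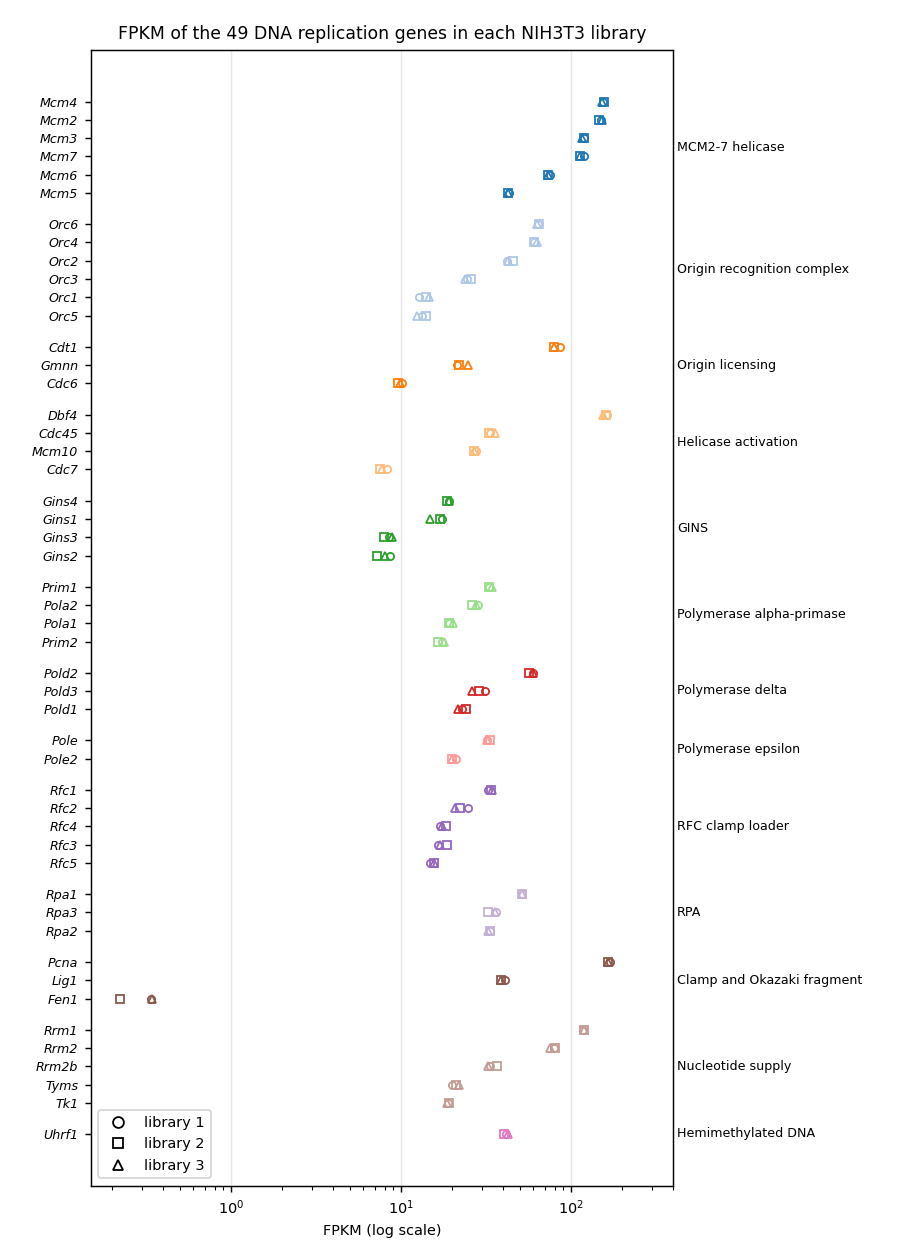
FPKM (log scale) of each of the 49 genes in library 1 (circles), library 2 (squares) and library 3 (triangles), grouped by complex and ordered by mean within each. The libraries lie close together for nearly every gene, while genes of 1 complex differ up to 20.3-fold (Dbf4 over Cdc7), and more only for Fen1, which sits near 0.3 FPKM.

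The MCM2-7 helicase, the ring of related ATPases that unwinds the parental DNA, had the highest summed level, 654 ± 6.05 FPKM, which was 28.8% of the FPKM of all 49 genes. Mcm4 measured 153, 157 and 152 FPKM in libraries 1, 2 and 3, a mean of 154 ± 2.39. Mcm2, which like Mcm4 is a substrate of the Cdc7 kinase, measured 149.8, 146 and 151 FPKM, a mean of 149 ± 2.42. Every library of Mcm4 was above every library of Mcm2, although the means differed only 1.03-fold. Mcm3 was at 119, 119 and 117 FPKM. Mcm7 was at 119.9, 113 and 114 FPKM, and its range contained that of Mcm3. Mcm6 followed at 75.3, 73.1 and 73.3 FPKM, below all libraries of Mcm7. Mcm5, which closes the ring next to Mcm2, was the lowest subunit at 43.4, 42.6 and 42.8 FPKM. The 6 proteins form a ring with 1 copy of each, whereas their transcripts spanned 3.59 ± 0.0782-fold from Mcm5 to Mcm4.

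These spans depend on the gene length behind the FPKM. The deposited values divide by the mean length of all annotated isoforms of a gene, non-coding ones included. For Mcm2 that length was 1333 nt, although the longest of its 7 isoforms, of which 1 is coding, has 3494 nt. With the longest isoform as the length, Mcm4 stood at 66.9 FPKM, Mcm3 at 59.8, Mcm2 at 56.9, Mcm7 at 41.6, Mcm6 at 35.3 and Mcm5 at 25.4. Mcm3 then exceeded Mcm2, Mcm4 stayed the highest and Mcm5 the lowest, and the span narrowed to 2.64-fold.

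The promoters of several MCM genes carry E2F-type words, shown here because such words were more frequent in this set than in promoters at large. RefSeq promoters (250 bases before to 50 after an annotated start) were matched by symbol for 40 of the 49 genes, with 50 windows in all, since some genes have several starts. They were searched on both strands for TTTGGCGC, TTTCCCGC, TTTGCCGC and TTTCGCGC, which are typical forms of the E2F site. The 4 windows printed have 2 or 3 matches each and run 5′ to 3′ on the gene's strand from 250 bases before the start to 30 after it, with matches in capitals, including those that read as the reverse complement. Positions are on GRCm38.p6. Mcm6 is at chr1:128359676-128359955 (minus strand), Mcm7 at chr5:138171854-138172133 (minus strand), Mcm5 at chr8:75109259-75109538 (plus strand) and the clamp loader gene Rfc3 at chr5:151651179-151651458 (minus strand).
Mcm6: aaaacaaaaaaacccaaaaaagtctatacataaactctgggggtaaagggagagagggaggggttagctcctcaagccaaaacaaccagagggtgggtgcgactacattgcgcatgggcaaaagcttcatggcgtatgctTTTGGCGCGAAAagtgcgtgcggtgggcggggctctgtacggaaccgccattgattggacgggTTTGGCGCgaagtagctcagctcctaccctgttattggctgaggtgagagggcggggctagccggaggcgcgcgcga
Mcm7: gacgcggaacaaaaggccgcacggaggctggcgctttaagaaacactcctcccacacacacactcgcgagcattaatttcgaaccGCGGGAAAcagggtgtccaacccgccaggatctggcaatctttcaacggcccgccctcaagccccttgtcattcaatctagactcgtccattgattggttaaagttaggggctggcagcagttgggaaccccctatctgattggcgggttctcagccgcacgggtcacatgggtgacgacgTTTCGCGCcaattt
Mcm5: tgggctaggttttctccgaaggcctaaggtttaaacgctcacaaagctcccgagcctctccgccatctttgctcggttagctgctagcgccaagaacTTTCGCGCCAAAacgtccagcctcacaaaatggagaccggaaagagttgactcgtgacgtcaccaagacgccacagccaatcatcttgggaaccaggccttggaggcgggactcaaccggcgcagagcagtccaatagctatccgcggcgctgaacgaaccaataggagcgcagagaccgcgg
Rfc3: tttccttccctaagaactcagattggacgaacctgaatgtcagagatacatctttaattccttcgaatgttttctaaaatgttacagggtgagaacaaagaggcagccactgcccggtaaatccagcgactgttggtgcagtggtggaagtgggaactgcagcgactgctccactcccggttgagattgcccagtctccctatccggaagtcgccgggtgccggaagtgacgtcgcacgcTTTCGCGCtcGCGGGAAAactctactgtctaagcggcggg

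In Mcm6 and in Mcm5 a word on the gene's strand overlaps one on the other strand, so the 2 matches are 1 stretch, and Mcm6 has a further word 43 nt before the start. In Rfc3 both matches lie at the start itself, with centres 6 nt before and 4 nt after it. In Mcm7 the matches lie 161 nt before and 20 nt after the start. Of the 40 genes, 16 (40%) held at least 1 of the 4 words in any of their windows, beside 2.60% of 27025 genes with a RefSeq promoter and 4.94% of the 9043 of these with a mean of at least 1 FPKM. Counted by window, 32.0% of the 50 held a word, beside 2.26% of all 32851 windows and 4.08% of the 11581 windows of genes with at least 1 FPKM. The 16 genes were Mcm3, Mcm5, Mcm6, Mcm7, Orc1, Orc3, Cdc6, Cdt1, Gins3, Pola1, Pold1, Pold3, Pole2, Rfc3, Lig1 and Uhrf1. TTTCCCGC was found in 8 genes (20%), TTTCGCGC in 7 (17.5%), TTTGGCGC in 6 (15%) and TTTGCCGC in 0. Of the 9043 genes with at least 1 FPKM, 2.55%, 0.796%, 1.13% and 0.675% held these words, in the same order. Of the 22 matches, with overlapping words counted separately, 14 lay between 100 nt before and 50 nt after the start. That stretch is a large part of each window, and no such share was taken over all promoters. The count therefore does not show that the words gather at the start. The genes had been picked for their role in replication, the shares were not tested, and a match is not evidence that a factor binds there.

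**Figure D2:**
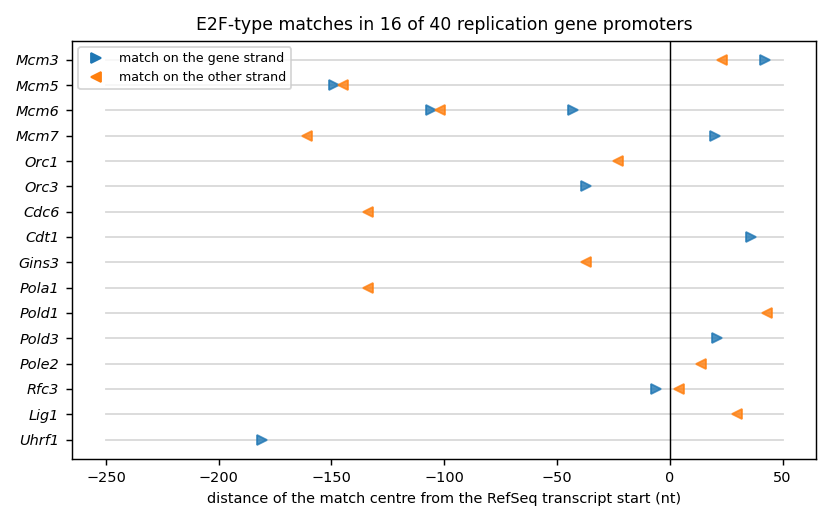
Position of each E2F-type word in the promoters of the 16 genes that hold one, as the distance of its centre from the RefSeq start in nt. Triangles to the right mark words on the gene's strand and triangles to the left words on the other strand. Of the 22, 14 lie between 100 nt before and 50 nt after the start, a share that was not taken over all promoters.

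Within the set, genes with such a word were not the higher ones. The median of the means was 26.8 FPKM for the 16 genes with a word and 33.8 FPKM for the 24 without. CCAAT, the core of the NF-Y site, was found in any window of 24 of the 40 genes (60%), beside 41.1% of all genes and 44.0% of those with at least 1 FPKM. The cell cycle homology region, TTTGAA, which is known from late cell cycle genes, was found in 7 (17.5%), beside 20.2% and 14.4%. Gins2, Pole, Gins4, Rrm2b, Rfc2, Prim2, Mcm4, Gins1 and Gmnn are named only, as no promoter was matched to them.

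ORC, which binds origins and loads the MCM ring, had a lower median level than the helicase it loads. The subunits of both overlapped in level, as Orc6 and Orc4 were above Mcm5 in every library. The mean of Orc2 was above that of Mcm5 too, but Orc2 was the higher only in library 2. With the longest isoforms, Orc6, at 42.7 FPKM, stayed above Mcm5, at 25.4 FPKM. Orc4, at 16.6 FPKM, and Orc2, at 15.7 FPKM, were then below Mcm5. The median of the 6 ORC genes was 34.1 FPKM, and the median of MCM2-7 was 117 FPKM. The ratio of the medians was 3.58, 3.22 and 3.48 in libraries 1, 2 and 3, a mean of 3.43 ± 0.184-fold, and 3.74-fold with the longest isoforms. The ORC subunits were spread more widely than those of the helicase. Orc6, the smallest subunit, measured 64.2, 64.8 and 63.3 FPKM. Orc4 measured 60.7, 60.8 and 62.8 FPKM. Orc2 measured 42.3, 45.9 and 42.4 FPKM. These 3 were the highest subunits, and their ranges did not overlap. Orc3, which is bound to Orc2 in the core of the complex, was at 24.7 ± 1.13 FPKM. Orc1, the subunit whose protein level is known to change over the cell cycle in mammals, was at 12.7, 14.1 and 14.6 FPKM. Orc5 was at 13.3, 14.1 and 12.4 FPKM, and these ranges of Orc1 and Orc5 overlapped. Orc4 had the largest gap between the mean and the longest isoform of all 49 genes, 3.69-fold, and was at 16.6 FPKM with the longest. With that length Orc1 became the lowest subunit at 4.56 FPKM, and the span within ORC widened from 4.84-fold to 9.38-fold.

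Of the licensing factors, Cdt1, which brings MCM2-7 to ORC, was well above its inhibitor geminin (Gmnn). Cdt1 measured 86.2, 79.0 and 79.1 FPKM. Gmnn measured 21.2, 22.0 and 24.7 FPKM. Library 1 was the highest for Cdt1 and the lowest for Gmnn, and no library of Gmnn came near Cdt1. Cdt1 was 3.62 ± 0.428-fold above Gmnn, and 2.62-fold with the longest isoforms. Cdc6, the ATPase that joins ORC to load the ring, was the lowest of the group at 10.1, 9.66 and 9.82 FPKM.

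The widest contrast between partners was in the kinase that fires origins. Dbf4 (ENSMUSG00000002297, chr5:8396973-8422716, minus strand), the regulatory subunit, measured 163.5, 160.7 and 153.8 FPKM. Cdc7, the catalytic subunit, which needs Dbf4 for its activity, measured 8.22, 7.56 and 7.77 FPKM. Dbf4 was thus 20.3 ± 0.817-fold above Cdc7, and 22.4-fold with the longest isoforms. Dbf4 ranked 660 of the 12905 genes with at least 1 FPKM, whereas Cdc7 was above 31.6% of them. The other activation factors lay between. Cdc45, a component of the active helicase, was at 34.0 ± 1.39 FPKM, and Mcm10, which helps to activate it, was at 27.1 ± 0.525 FPKM.

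GINS, the 4-subunit complex that holds Cdc45 to the ring, summed to 51.7 ± 1.58 FPKM, 2.27% of the set. Gins4 measured 19.0, 18.7 and 19.0 FPKM. Gins1 measured 17.4, 17.0 and 14.7 FPKM. Both were above Gins3, at 8.47 ± 0.456 FPKM. Gins2 was at 8.57, 7.21 and 8.01 FPKM, within reach of Gins3. The exons of Gins2 are covered over 67.3% of their length by exons of Gse1, a gene on the opposite strand at 12.5 ± 0.395 FPKM, so the reads of both may not be told apart. Whether this overlap affects the level of Gins2 was not tested.

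For polymerases alpha and delta, another subunit in the set had more RNA than the catalytic subunit that elongates DNA. In the deposited values for epsilon, this held only for Pole3 and Pole4, which are outside the set. In polymerase alpha-primase, which makes the RNA-DNA primers, the primase subunit Prim1 led at 33.0, 32.8 and 34.5 FPKM. It was followed by the accessory subunit Pola2 at 27.4 ± 1.11, the catalytic subunit Pola1 at 19.5 ± 0.722 and the large primase subunit Prim2 at 17.3 ± 0.769 FPKM. In polymerase delta, the main lagging-strand enzyme, the accessory subunit Pold2 led at 59.4, 56.3 and 59.7 FPKM. The catalytic subunit Pold1 was at 22.8, 24.0 and 21.6 FPKM. All libraries of Pold1 were below those of the accessory subunit Pold3, at 31.3, 28.9 and 26.2 FPKM. In polymerase epsilon, the main leading-strand enzyme, the catalytic subunit Pole was at 32.2, 33.3 and 32.2 FPKM, above its partner Pole2 at 20.3 ± 0.676 FPKM. The small histone-fold subunits Pole3 and Pole4, which come from the list of other replication genes, were at 47.2 ± 1.28 and 56.9 ± 2.39 FPKM and above Pole in every library. Pold4, a polymerase delta subunit from that list, was at 9.34 ± 0.890 FPKM and below Pold1 in every library. Pole was 1.43 ± 0.0530-fold above Pold1, which narrowed to 1.18-fold with the longest isoforms. With that length, Pole2 was above Pole and Prim2 above Pola1, so those orders rest on the length.

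RFC, which opens the sliding clamp and places it on DNA, had more RNA for its large subunit than for any of the small ones. Rfc1, the large subunit, measured 32.6, 33.8 and 34.3 FPKM. Rfc2 measured 24.8, 22.2 and 20.7 FPKM. Rfc4, Rfc3 and Rfc5 had means of 17.6 ± 0.754, 17.4 ± 1.16 and 15.4 ± 0.443 FPKM, with overlapping ranges for Rfc4 and Rfc3. Rfc1 was 1.92 ± 0.0888-fold above the median of the 4 small subunits, and 3.08-fold with the longest isoforms. In RPA, the trimer that coats single-stranded DNA, Rpa1, the large DNA-binding subunit, measured 51.4, 51.3 and 51.5 FPKM. Its CV of 0.143% was the smallest of all 49 genes, below the 2.49% that counting error alone would give. Rpa3 measured 36.1, 32.4 and 35.9 FPKM, and its range overlapped that of Rpa2, at 33.3, 33.2 and 32.3 FPKM. Rpa1 was 1.56 ± 0.0267-fold above Rpa2 and 1.55-fold with the longest isoforms, but Rpa3, whose isoforms are nearly equal in length, exceeded Rpa1 with that choice.

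Pcna (ENSMUSG00000027342, chr2:132249162-132253314, minus strand), the clamp that tethers polymerases to DNA, was the highest of the set at 168.5, 164.2 and 165.2 FPKM and ranked 622 of the 12905 genes. A processed pseudogene, Pcna-ps2 (chr19:9283380-9284160, plus strand), was itself listed at 46.6, 46.1 and 48.6 FPKM, which is 28.4% ± 0.912 of the Pcna level. All of the 13.8% of 75-nt words that Pcna transcripts share with other genes are shared with Pcna-ps2, so reads of this copy and of Pcna cannot be told apart with certainty. Lig1, the ligase that seals Okazaki fragments, was at 40.6, 39.0 and 38.7 FPKM. Fen1 (ENSMUSG00000024742, chr19:10199132-10204169, minus strand), the flap endonuclease that removes the 5′ ends of Okazaki fragments, was listed at only 0.340, 0.224 and 0.343 FPKM. These values rest on 11, 7 and 11 fragments.

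The low value of Fen1 went together with the position of the gene. Exons of other genes on the opposite strand cover 84.2% of its exonic length. The antisense gene Gm10143 covers 78.8% (1909 nt) and was itself listed at 0.170, 0.329 and 0.214 FPKM. Tmem258, whose start lies 155 nt from that of Fen1, covers 5.37% and was at 24.7 ± 2.01 FPKM. A counter that sets aside reads which fit more than 1 gene would leave few for such a gene, but whether strand was used in the counting is not given in the sources used here, and its part in the value was not tested. For all protein-coding genes, the overlap was taken with other genes on either strand, so these shares are not for opposite-strand overlap alone. Among those covered to 80% or more, 10 of 349 (2.87%) had a mean of at least 1 FPKM. The share was 30.7% of 293 genes covered from 50% to 80%, 56.1% of 999 covered from 20% to 50%, 68.3% of 4907 covered above 0% and up to 20%, and 44.1% of 15432 with no overlap. Of the replication genes, 18 had some exonic overlap, and Fen1 and Gins2 were the ones with overlap over at least 50% of their length. The next was Orc2 at 29.8%, by Nif3l1 on the opposite strand at 18.8 ± 0.418 FPKM. These counts were not compared with those of all protein-coding genes given above and say nothing particular about the set. For Fen1 the deposited value is given as uncertain, and whether it reflects the level of its mRNA was not tested.

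**Figure D3:**
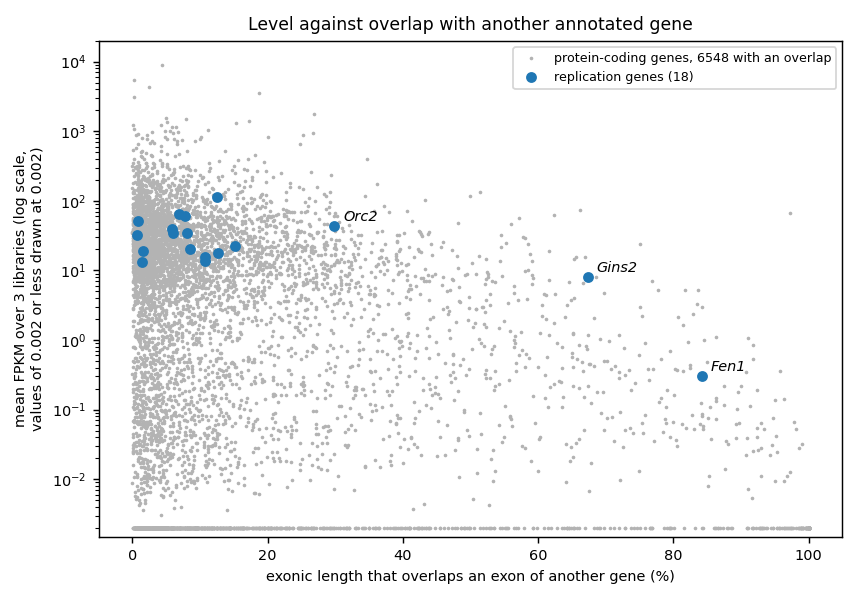
Mean FPKM over the 3 libraries (log scale, values at or under 0.002 drawn at the bottom) against the share of a gene's exonic length that overlaps an exon of another gene, for protein-coding genes with an overlap (grey) and the 18 replication genes among them (blue). Fen1, at 84.2% and 0.302 FPKM, lies in the region where few genes reach 1 FPKM, and Gins2 is at 67.3% and 7.93 FPKM.

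The enzymes that supply deoxynucleotides summed to 271 ± 5.19 FPKM, 11.9% of the set. Rrm1, the large subunit of ribonucleotide reductase, measured 118, 119.9 and 119 FPKM. Rrm2, the small subunit used in S phase, measured 79.6, 80.5 and 75.2 FPKM. Rrm2b, the p53-inducible small subunit that is used outside S phase, measured 33.3, 36.6 and 32.6 FPKM. In every library Rrm1 was the highest and Rrm2b the lowest of these subunits. Rrm2 was 2.30 ± 0.0981-fold above Rrm2b, and 3.89-fold with the longest isoforms. Rrm1 was 1.52 ± 0.0563-fold above Rrm2, but with the longest isoforms they stood level at 40.1 and 40.7 FPKM. Thymidylate synthase (Tyms), which makes dTMP de novo, was at 19.95, 21.1 and 21.9 FPKM, and thymidine kinase 1 (Tk1), which salvages thymidine, was at 18.9 ± 0.171 FPKM. Uhrf1, which binds hemimethylated DNA behind the fork and recruits the maintenance methyltransferase, was at 41.4, 40.1 and 42.4 FPKM.

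Within the complexes, 36 pairs of genes were neighbours in the order of levels. In 31 pairs the ranges over the 3 libraries were separate, and they overlapped for Mcm3 and Mcm7, Orc1 and Orc5, Gins3 and Gins2, Rfc4 and Rfc3, and Rpa3 and Rpa2. The order came from the same 3 libraries, and no such share was taken over other genes. The count therefore describes these libraries and is not a result about the complexes. Taking the longest isoform as the length turned 8 of the 36 orders, 7 of them among the separate pairs. The 8 ratios between partners given above (ORC and MCM2-7, Rrm2 and Rrm2b, Rrm1 and Rrm2, Cdt1 and Gmnn, Dbf4 and Cdc7, Pole and Pold1, Rfc1 and the small RFC subunits, Rpa1 and Rpa2) had the same direction in 3 of 3 libraries. With an exact permutation of signs over the libraries, two-sided, each of them had p = 0.25, and 0.25 after Benjamini-Hochberg adjustment over the 8, which is the smallest value 3 libraries allow, so this design cannot reach a usual threshold.

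**Figure D4:**
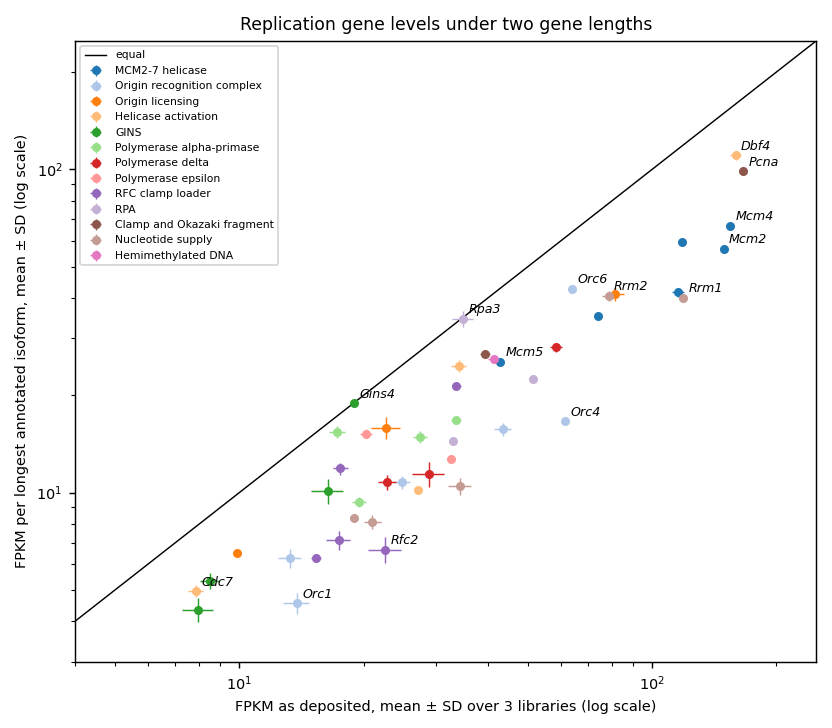
FPKM with the longest annotated isoform as gene length against FPKM as deposited, both as mean ± SD over the 3 libraries on log scales, for the replication genes without Fen1. Points under the line of equal values lose most; Orc4 moves down 3.69-fold and Rpa3 and Gins4 hardly or not at all, which changes orders such as Rpa1 over Rpa3.

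The libraries repeated each other closely for these genes. The median CV of the 49 genes was 3.34%, and the median expected from counting error alone was 3.90%. For 29 of the 49 the CV was below its counting value. No such share over all genes was taken, so this count says nothing particular about the set. Of the 48 genes with at least 30 fragments, 4 (8.33%) varied beyond the 95% limit of counting error (chi-square over the libraries, limit 5.99), beside 9.49% of all 13643 genes tested, so the set did not stand out from the background. The 4 were Cdt1 (chi-square 8.22), Rfc2 (8.13), Dbf4 (7.92) and Pold3 (7.87), each highest in library 1. Rfc2 overlaps Lat2 on the opposite strand over 15.1% of its length. With library 1 left out, 1 of the 48 was over the limit, beside 7.05% of all genes tested. With library 2 left out, 4 were, beside 9.22%, and with library 3 left out, 1 was, beside 9.16%. With the 99% limit 0 of the 48 were over it, beside 3.77%. Over all 49 genes the highest value fell in library 1 for 20, in library 2 for 13 and in library 3 for 16. This split was not taken over all genes of the table and is a description only.

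**Figure D5:**
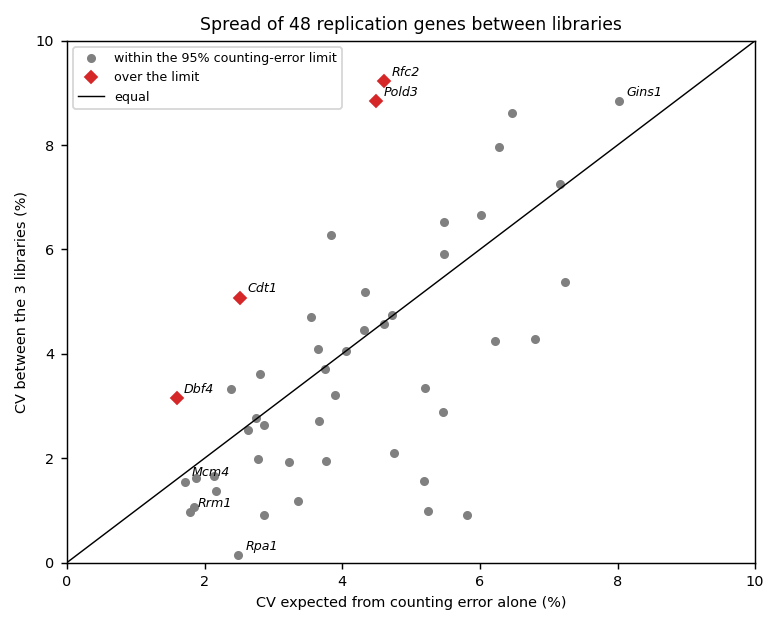
CV between the 3 libraries against the CV expected from counting error alone, both in %, for the 48 genes with at least 30 fragments; the line marks equal values. Red diamonds are the 4 genes over the 95% limit (Rfc2, Pold3, Cdt1 and Dbf4), and Rpa1, at 0.143%, is the lowest point.

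The replication genes are spread over 16 chromosomes, with 10 of them on chromosome 5, namely Dbf4, Cdc7, Mcm7, Pole, Orc5, Tyms, Rfc1, Rfc2, Rfc3 and Rfc5. The share of all genes on chromosome 5 was not taken, so this number is a description only. For 14 of the 49 (28.6%) a protein-coding gene starts on the other strand within 1000 nt, beside 17.5% of protein-coding genes with at least 1 FPKM. The levels of such pairs could differ widely. Mcm4, at 154 FPKM, starts 466 nt from Prkdc, at 8.11 FPKM. Cdc45, at 34.0 FPKM, starts 208 nt from Ufd1, at 138 FPKM. Orc3 and Rars2 start 13 nt apart and were similar, at 24.7 and 22.2 FPKM.

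A list of 37 other replication genes (fork protection, further polymerase subunits, alternative clamp loaders, topoisomerases, chromatin assembly, further nucleotide enzymes) was also measured. For 36 a row was matched by name, and all 36 had a mean of at least 1 FPKM, 26 of them at least 10 FPKM. Their median was 24.5 FPKM, beside 32.6 FPKM for the 49 genes, a difference that was not tested. The highest was Top2a, the topoisomerase that untangles sister DNA, at 205 ± 5.59 FPKM, and the lowest was Dna2, a nuclease of Okazaki fragment processing, at 2.47 ± 0.233 FPKM.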

How the data were processed

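UMI-RNAseq of 3 libraries of untreated NIH3T3 cells was used, all of 1 condition. Per the labels and the methods, reads were paired-end with 150 nt, UMIs were handled with UMI-tools 1.0.0, reads were mapped with HISAT2 2.0.4 and counted per gene with HTSeq 0.6.1, and the authors deposited FPKM values, 1 column per library. The build and annotation of the counting, and whether it used strand, are not given in the sources used here. Both deposited tables held identical FPKM values. 0 columns of values were left unused.

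No count model was fitted, since there is 1 condition. Each FPKM, times the mean isoform length in GENCODE M21 (GRCm38, 55480 IDs matched) and the library total, gave whole fragments (within 0.01) in every library for 25969 of 26178 genes (99.2%) and all 49 members. Library totals were read from genes with 1 isoform. Ratios were taken within libraries and tested with an exact sign-flip permutation test. Fragments were compared between libraries with a chi-square on 2 degrees of freedom, whose limit covers counting error only. Shared sequence is the percentage of distinct 75-nt words, on either strand, found in transcripts of another gene. Promoter sequences came from RefSeq (GRCm38.p6). Scripts used Python 3.11.15, numpy 2.4.6, pandas 2.3.3, scipy 1.17.1, statsmodels 0.14.6 and matplotlib 3.10.9 and were tested on simulated data.

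All 49 members are named, and of the other replication genes the highest and the lowest, with Pole3, Pole4 and Pold4 added after their values were known. Genes that overlap, copy or start beside a member are named too, and this choice followed a look at their values. The members, lists and ratios were chosen with earlier results of these data known. Alternatives were leaving out each replicate, TPM, median-of-ratios scaling, the longest isoform, fragments per 1000000, a pseudocount of 1, and other limits. Leaving out members overlapped over at least 50% and adding Pcna-ps2 to Pcna were chosen after seeing the data.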

Additional observations from a re-analysis of the deposited data

How the results depend on the processing

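Of 89 values recomputed for the 8 ratios, the levels of the set and the count over the counting-error limit, 76 stayed within the limits set (the same direction for a ratio, within 1.5 times for a count), 12 moved and 1 reversed. Rescaling to TPM and median-of-ratios scaling cannot change a ratio taken within a library. Those values were fixed in advance and say nothing about how stable the ratios are. Ratios that kept their direction could still change in size. The reversed value was the log2 ratio of Rrm2 to Rrm1, -0.60 as deposited, 0.019 with the longest isoform and -1.30 as fragments per 1000000. Without division by length, the log2 ratio of Rpa2 to Rpa1 went from -0.64 to -2.12 and that of the small RFC subunits to Rfc1 from -0.94 to -2.24. The median of the replication genes, 32.6 FPKM, was 15.4 with the longest isoform, 47.2 after rescaling to TPM and 46.3 as fragments per 1000000 without division by length. It was 32.8 for genes with at least 1 FPKM, 32.2 with the median over libraries and 32.9 without the genes overlapped over at least 50%. Leaving out each replicate gave 32.2 to 32.7 FPKM. The limits named above are for ratios and counts, and for this median even such small shifts were counted as moved. The number of genes over the counting-error limit, 4, was 1 to 4 when each replicate was left out (1 without library 1 or library 3, beside 7.05% and 9.16% of all genes tested) and 0 with the 99% limit, beside 3.77% of all genes tested. The number with at least 10 FPKM, 44, was 36 with the longest isoform. No median or share over all genes is given for that length. Single gene levels moved in 46 of the 49 genes with the longest isoform. Pcna with Pcna-ps2 added is a sum of 7956 fragments. No paired analysis was possible because the libraries share 1 condition. Depth limits Fen1, with 29 fragments in all, whereas every other gene rests on at least 468.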

Other observations

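Dbf4, the second highest gene of the replication set, lies in a stretch of chromosome 5 that was looked at after its value was seen. Of the 8 protein-coding genes that lie within 500000 nt of it, Sri (sorcin, a calcium-binding protein) was at 225 ± 1.94 FPKM and Abcb1b (a multidrug transporter) at 219 ± 0.517 FPKM, both above Dbf4 at 159 ± 5.03 FPKM. Slc25a40, a mitochondrial carrier gene that starts 134 nt from Dbf4 on the other strand, was at 67.4 ± 1.90 FPKM, and Abcb1a was at 17.7 ± 0.164 FPKM. The remaining genes were low, with Adam22 at 0.424, Abcb4 at 0.255 and Steap4 at 0.126 FPKM, and Rundc3b listed at 0. No test was run on this stretch, and gene copy number was not measured.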
